A study of Mus musculus with 4 samples.

Results

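The genes described here are 10 classical transcriptional targets of p53: Cdkn1a, Mdm2, Trp53inp1, Fas, Sesn1, Ccng1, Bbc3, Bax, Gadd45a and Zmat3. They were named from a list, and every probe set was taken whose single symbol in the platform annotation was one of them. This list, the further gene lists and the cell type markers were chosen with earlier results of these data known. Counts set beside the share of all genes are therefore descriptive and do not test the lists. In all, 18 probe sets represented 9 of the 10 genes, among 18193 genes with a single symbol on the array. Bax had no probe set under this rule and is not analysed here. Of the 18 probe sets, 15 passed the filter on dim signals, at least 1 for each of the 9 genes.

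RNA came from cultures of palatal mesenchyme, the embryonic connective tissue that forms the core of the palatal shelves, set up from mouse embryos at embryonic day 14. All 4 cultures were outbred wild-type. One culture was exposed to 5Z-7-oxozeaenol, an inhibitor of the Tak1 kinase (oxozeaenol below), for 60 minutes and then given TGF-beta2 for 120 minutes. Another was exposed to SB431542, an inhibitor of the TGF-beta type I receptor kinase, for the same 60 minutes before the same 120 minutes of TGF-beta2. The remaining cultures had TGF-beta2 alone for 120 minutes or were left untreated. Each treatment has 1 culture and 1 array, the labels give no inhibitor dose and do not say how many embryos went into a culture, and none of the 4 arrays shows an inhibitor without TGF-beta2. Every difference below is therefore between single arrays, with no replicate check and no test. The arrays are shared between comparisons, so that a high or low reading on the TGF-beta2 array, for example, enters 3 of the 6 comparisons.

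p53 is a transcription factor that is held low by Mdm2, a ubiquitin ligase that p53 itself induces. When DNA damage or another stress frees p53, it binds response elements made of 2 half-sites and raises genes that stop the cell cycle (Cdkn1a, Ccng1, Gadd45a), repress growth signalling and limit oxidants (Sesn1), drive apoptosis (Bbc3, Bax, Fas) and add to its own output (Trp53inp1, Zmat3). Several of these genes are also raised or lowered by other transcription factors, including FoxO factors, Smads and stress-activated factors. In embryonic facial tissue, p53 activity is known chiefly for the cell death it causes when neural crest development is disturbed.

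The promoters of 8 of the 10 members, in 12 windows of 250 bases before to 50 after a transcript start, were in the RefSeq promoter table (GRCm38.p6). Trp53inp1 and Zmat3 were not. A match to the p53 half-site consensus, which is its own reverse complement and so was searched on both strands at once, lay in 6 of the 12 windows, belonging to 6 genes, against 8.36% of the 32851 promoter windows in the table. Of these, 4 are printed here: those of Cdkn1a, which holds 2 half-site matches, of Sesn1, the 1 of the genes most different with oxozeaenol that had a match, of Mdm2, the feedback regulator, and of Gadd45a. Capitals mark each half-site match. The Cdkn1a sequence (chr17:29090903-29090962, plus strand) has 2 of them, 73 to 64 and 51 to 42 bases before the upstream of its 2 listed starts. The Sesn1 sequence (chr10:41887241-41887300, plus strand) lies before the downstream of 2 listed starts, with the half-site 173 to 164 bases before it. The Mdm2 sequence (chr10:117710910-117710969, minus strand) has it 186 to 177 bases before the start. The Gadd45a sequence (chr6:67037413-67037472, minus strand) has it 40 to 31 bases before the start.
Cdkn1a: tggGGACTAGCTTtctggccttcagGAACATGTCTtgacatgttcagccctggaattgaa
Sesn1: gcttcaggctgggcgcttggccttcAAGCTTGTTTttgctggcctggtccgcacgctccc
Mdm2: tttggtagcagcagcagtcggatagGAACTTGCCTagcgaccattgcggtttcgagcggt
Gadd45a: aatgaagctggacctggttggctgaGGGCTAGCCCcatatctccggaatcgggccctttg
In the Cdkn1a sequence the half-site nearer the start is followed closely by a second CATG core, in lower case and outside the marked matches. This arrangement, CATG and CATG with 6 bases between them, occurred in 0.712% of all windows and in 1 of the 12 of the members. Fas and Bbc3 had no half-site match in their windows. These matches describe letters in a short window and say nothing about binding.

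The 4 arrays had median signals between 66.3 and 72.7. Markers checked the labelled cell type: 12 of 14 palatal mesenchyme markers passed the filter, and their summed signal lay between 99948 and 111427 on the 4 arrays. Osr2 and Tbx22, which mark palatal mesenchyme in the embryo, stayed under the filter, with signals of at most 30.4. All 12 macrophage and blood markers passed it as well, with summed signals between 58489 and 69504. Endothelial and skeletal muscle markers passed for 3 of 10 genes each. The 14 epithelial markers summed to 8414 with oxozeaenol, against 2598 with SB431542, 2589 with TGF-beta2 and 2691 untreated. Of 14 suprabasal epithelial markers, 13 had a probe set, and these summed to 14417 with oxozeaenol, against 2374 with SB431542, 1926 with TGF-beta2 and 1949 untreated. No marker was listed at 0, but the basal keratin Krt15 read 524 with oxozeaenol and at most 14.7 on the other arrays. With oxozeaenol over TGF-beta2, 5 of 11 kept epithelial and 8 of 9 kept suprabasal markers were at least 2-fold higher, beside 1.82% of all genes. The filter averaged over the 4 arrays, so a high oxozeaenol reading could itself carry a marker past it. Krt13 (2023, at most 55.8 elsewhere) and Krtdap (951, at most 50.4 elsewhere) lay below the filter level on every other array. Krt14, Krt5, Krt17, Dsp, Krt6a, Lor, Sprr1a and Sbsn lay above it on every array. The filter thus helped to set these counts, and their contrast with all genes is descriptive. Some listed markers did not follow the sums. Epcam read 366 with oxozeaenol and 369 untreated, and Cldn4 336 and 342. Grhl2 was highest with SB431542 (114, against 81.2 with oxozeaenol) and Ivl with TGF-beta2 (40.3, against 4.62). In bulk RNA, a different number of cells of a type and a different amount of RNA per cell cannot be told apart.

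The first question is what differed when oxozeaenol was given before TGF-beta2. Of the 9 measured p53 targets, 3 were at least 2-fold higher with oxozeaenol and TGF-beta2 than with TGF-beta2 alone: Trp53inp1, Fas and Sesn1. The other 6 lay within 2-fold, and none was at least 2-fold lower. The same rule took 1.82% of all 11744 genes as higher in this comparison and 2.17% as lower. Since the members were chosen with earlier results known, this contrast is descriptive. The median log2 fold of the 9 genes was 0.25, and that of all genes 0.05. Above 0 were 7 of the 9 members and 57.4% of all genes.

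Trp53inp1 encodes a stress-induced nuclear and autophagy protein that works with p53 in arrest and cell death. Its kept probe set had a signal of 4196 with oxozeaenol, 1403 with SB431542, 1091 with TGF-beta2 and 1700 untreated. The oxozeaenol array stood far above the other 3, of which the untreated one was highest. The log2 fold with oxozeaenol was 1.92 over TGF-beta2, the 41st highest of 11744 genes, and 1.29 over untreated. A second Trp53inp1 probe set was under the filter, with 59.5 with oxozeaenol, 7.07 with SB431542, 44.2 with TGF-beta2 and 30.2 untreated, and was also highest with oxozeaenol. In other comparisons it ran opposite to the kept one. SB431542 over TGF-beta2 gave −1.20, against 0.36, and TGF-beta2 over untreated 0.34, against −0.63.

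Fas encodes the death receptor for Fas ligand, at the cell surface. It was represented by a single probe set, with a signal of 281 with oxozeaenol, 121 with SB431542, 94.3 with TGF-beta2 and 169 untreated. Again the oxozeaenol array was highest and the TGF-beta2 array lowest. The log2 fold with oxozeaenol over TGF-beta2 was 1.38, rank 85, and it lay between 1.10 and 1.52 over the alternatives, the 2 ends of that range coming from the other pseudocounts. The plain ratio of the 2 signals was 2.98.

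Sesn1 encodes sestrin 1, a stress-inducible inhibitor of mTORC1 signalling. The probe set that stood for it read 1718 with oxozeaenol, 946 with SB431542, 681 with TGF-beta2 and 1051 untreated. Its other kept probe sets read 1721 and 876 with oxozeaenol, 753 and 499 with SB431542, 656 and 260 with TGF-beta2, and 1311 and 461 untreated. All 3 were highest with oxozeaenol and lowest with TGF-beta2, and their log2 folds between those arrays were 1.31 to 1.67. Over untreated, the same probe sets were higher with oxozeaenol by only 0.39 to 0.89 on the log2 scale. Another Sesn1 probe set, under the filter, was highest untreated. It read 21.4 with oxozeaenol, 20.2 with SB431542, 13.2 with TGF-beta2 and 31.1 untreated.

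**Figure D1:**
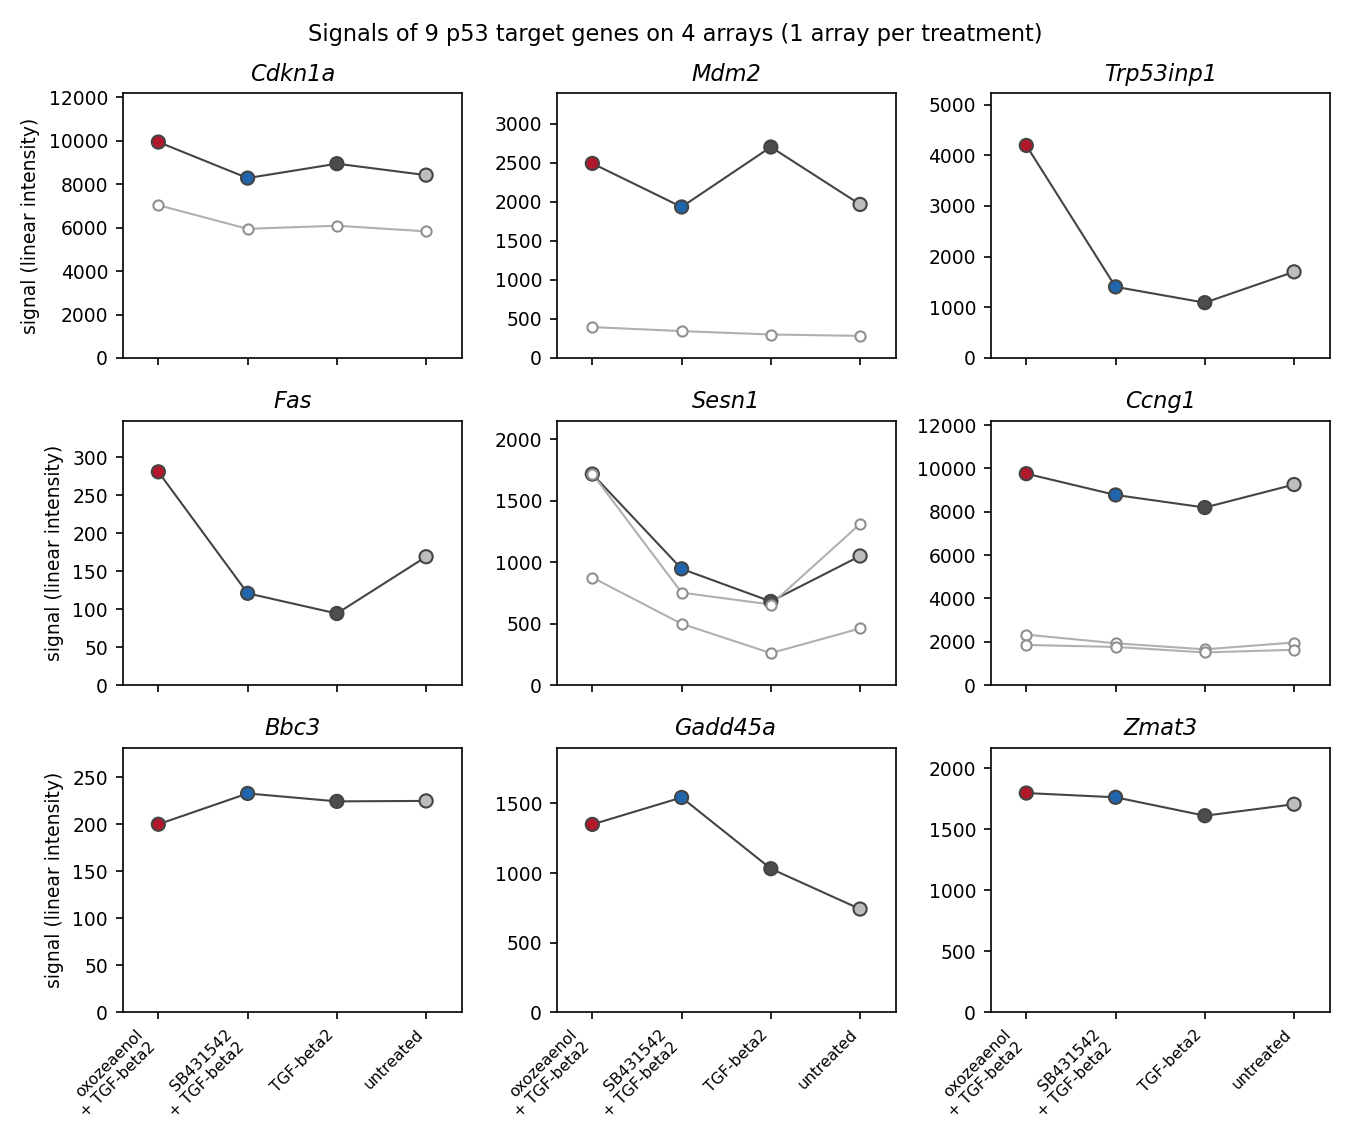
Signal (linear intensity, axis from 0) of each p53 target gene on the 4 arrays, left to right oxozeaenol with TGF-beta2, SB431542 with TGF-beta2, TGF-beta2 and untreated. Filled points are the probe set that stands for the gene, open points its other kept probe sets, and lines join the readings of 1 probe set. Trp53inp1, Fas and Sesn1 are highest with oxozeaenol and lowest with TGF-beta2.

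The best known cell cycle and feedback targets differed little on the same array. Cdkn1a encodes p21, the inhibitor of cyclin-dependent kinases through which p53 halts the cycle. It read 9946 with oxozeaenol, 8285 with SB431542, 8949 with TGF-beta2 and 8421 untreated. Its other probe set read 7037 with oxozeaenol, 5947 with SB431542, 6090 with TGF-beta2 and 5832 untreated. Both put oxozeaenol highest, with log2 folds over TGF-beta2 of 0.15 and 0.21, far inside 2-fold.

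Ccng1 encodes cyclin G1, which recruits a phosphatase to Mdm2. Its brightest probe set read 9758 with oxozeaenol, 8776 with SB431542, 8195 with TGF-beta2 and 9256 untreated. All 3 of its kept probe sets were highest with oxozeaenol and lowest with TGF-beta2, by log2 folds of 0.25 to 0.49.

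Zmat3 encodes a zinc finger RNA-binding protein. Its readings were 1799 with oxozeaenol, 1764 with SB431542, 1612 with TGF-beta2 and 1707 untreated, the smallest spread of the 9 genes, at 1.11-fold between the highest and lowest array. Bbc3 encodes PUMA, a BH3-only protein that starts mitochondrial apoptosis. It read 200.1 with oxozeaenol, 233 with SB431542, 224 with TGF-beta2 and 225 untreated, and was the 1 member with its lowest reading on the oxozeaenol array.

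The probe sets of Mdm2 did not run the same way. The brighter one read 2493 with oxozeaenol, 1935 with SB431542, 2703 with TGF-beta2 and 1967 untreated. A dimmer kept one read 395 with oxozeaenol, 344 with SB431542, 300.1 with TGF-beta2 and 283 untreated. Their log2 folds with oxozeaenol over TGF-beta2 were −0.12 and 0.37, and with SB431542 over TGF-beta2 −0.48 and 0.18. Both were higher with oxozeaenol than untreated, by 0.34 and 0.45. The mean over both probe sets gave 0.13 for oxozeaenol over TGF-beta2, so the direction of Mdm2 in that comparison depends on the probe set. A further Mdm2 probe set, under the filter, was lowest with oxozeaenol. It read 19.2 with oxozeaenol, 20.6 with SB431542, 23.5 with TGF-beta2 and 33.5 untreated.

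Against the untreated culture, oxozeaenol with TGF-beta2 left 1 of 9 members at least 2-fold higher, Trp53inp1, and none lower, where 1.49% of all genes were higher and 1.51% lower. The median log2 fold was 0.34 for the members and 0.03 for all genes. Fas (0.67) and Sesn1 (0.70) were above untreated but inside 2-fold. Both had lower readings with TGF-beta2 alone than untreated, so that their folds over TGF-beta2 were the larger ones. Gadd45a, a stress sensor protein that binds cell cycle and MAP kinase regulators, was second only to Trp53inp1, at 0.85.

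TGF-beta2 alone over untreated put no member past 2-fold in either direction, where 0.673% of all genes were higher and 0.366% lower. The 3 genes highest with oxozeaenol were the lowest members here: Fas at −0.72, Trp53inp1 at −0.63 and Sesn1 at −0.61. Counted from the lowest of 11744 genes, these were ranks 145, 218 and 252. Those 3 genes had been picked out by their folds over the same TGF-beta2 array. A low reading on it raises those folds and lowers these, so the ranks are not a separate result. Mdm2 (0.45) and Gadd45a (0.46) were the highest members, and Cdkn1a stood at 0.09. The dimmer kept probe set of Mdm2 gave only 0.08. The median of the 9 was −0.08, beside −0.03 for all genes.

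SB431542, the inhibitor of the type I receptor kinase, comes next. With SB431542 and TGF-beta2 over TGF-beta2 alone, none of the 9 members was 2-fold apart in either direction, where 0.613% of all genes were higher and 1.18% lower. Gadd45a (0.57), Sesn1 (0.46), Trp53inp1 (0.36) and Fas (0.30) had the highest values, and Mdm2 (−0.48, but 0.18 by its dimmer kept probe set) the lowest. Sesn1, Trp53inp1 and Fas lay between their TGF-beta2 and untreated readings on this array, except for 1 of the 3 Sesn1 probe sets, at 499 with SB431542 against 461 untreated. The median was 0.13, beside 0.03 for all genes.

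Over untreated, SB431542 with TGF-beta2 left Gadd45a as the 1 member at least 2-fold higher, and none lower, where 0.468% of all genes were higher and 0.383% lower. Gadd45a had a single probe set, with 1543 with SB431542, 1350 with oxozeaenol, 1032 with TGF-beta2 and 741 untreated. Both inhibitor arrays lay above TGF-beta2 alone, and all 3 stimulated arrays above the untreated one. Its log2 fold with SB431542 over untreated was 1.04, the 49th highest of 11744 genes and just past 2-fold, and it was 0.99 with the pseudocount at the median.

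Set against each other, oxozeaenol over SB431542, both with TGF-beta2, left Trp53inp1 (1.57) and Fas (1.09) at least 2-fold higher and no member lower, where 1.51% of all genes were higher and 1.3% lower. Fas was inside 2-fold, at 0.88, with the pseudocount at the median. Sesn1 stood at 0.85, and its 3 kept probe sets ranged over 0.78 to 1.17. Bbc3 (−0.20) and Gadd45a (−0.19) were the 2 members with lower readings on the oxozeaenol array.

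**Figure D2:**
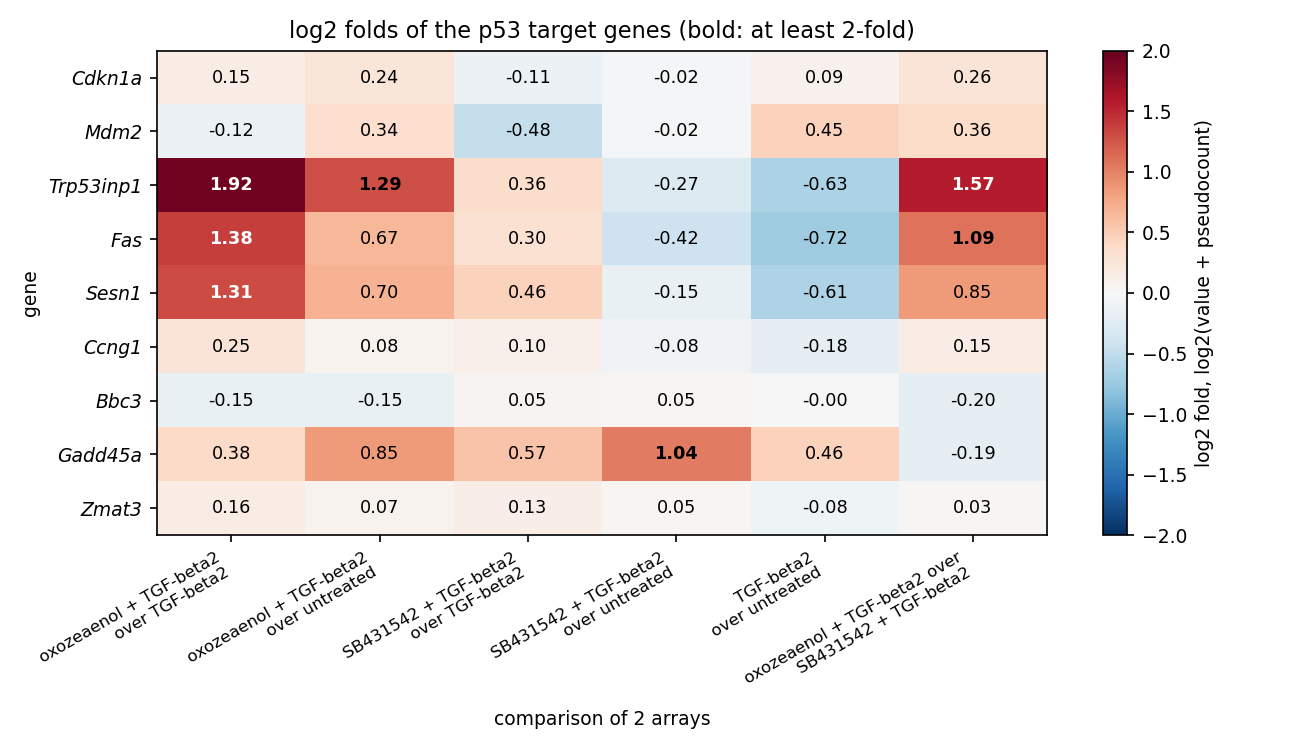
log2 fold, on the log2(value + pseudocount) scale, of each p53 target gene (rows) in the 6 comparisons of 2 arrays (columns), by the probe set that stands for the gene. Bold values are at least 2-fold: Trp53inp1 in 3 comparisons, Fas in 2, Sesn1 in 1 and Gadd45a in 1.

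Taken by their order over the 4 arrays, 6 of the 9 members were highest with oxozeaenol, and 34.8% of all genes were. On the TGF-beta2 array 5 of the 9 were lowest, as were 30.7% of all genes. Trp53inp1, Fas, Sesn1 and Ccng1 shared the order oxozeaenol, untreated, SB431542, TGF-beta2 from high to low, an order that 6.73% of all genes had. The order was picked out after the values were seen, so the count describes these 4 arrays.

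**Figure D3:**
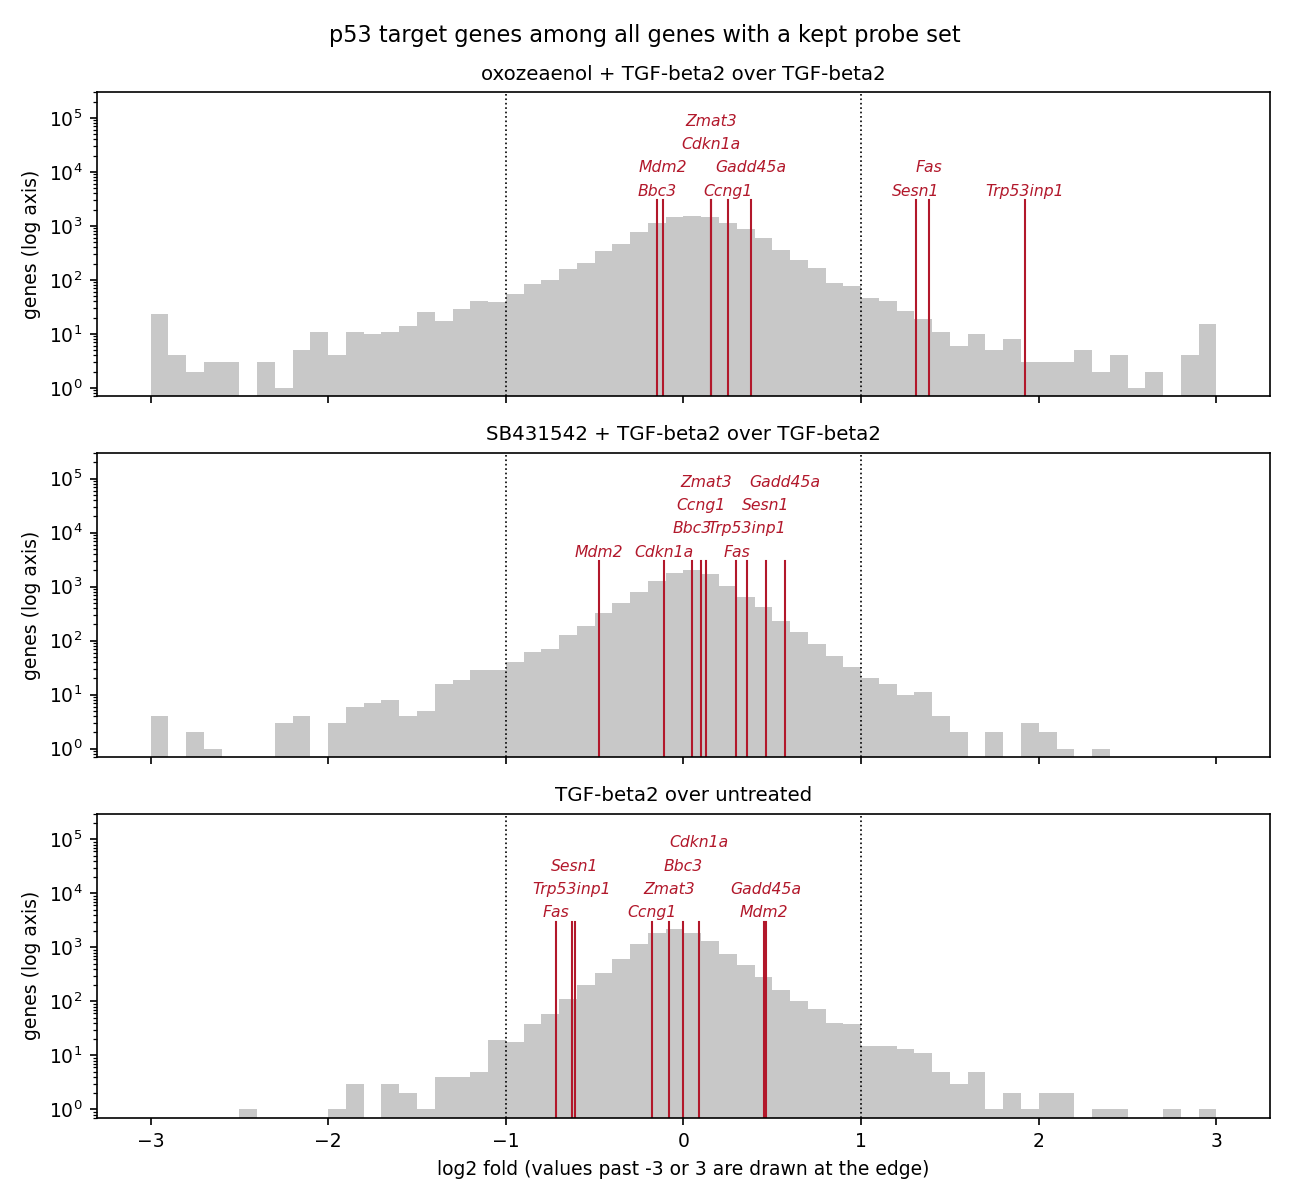
Distribution of log2 folds of 11744 genes (grey bars, number of genes on a log axis) in 3 comparisons, with the 9 p53 target genes marked in red and dotted lines at 2-fold. Trp53inp1, Fas and Sesn1 stand in the upper tail with oxozeaenol over TGF-beta2 and at −0.72 to −0.61 with TGF-beta2 over untreated. All 3 comparisons share the TGF-beta2 array.

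Transcripts of p53 regulators are given next. Of 12 listed genes 9 were measured, and none was 2-fold apart in any comparison. Of all genes, only 0.366% to 2.17% were in either direction, so a count of 0 among 9 does not set them apart. Trp53, the gene of p53 itself, had no probe set with its symbol alone and is not analysed here. Mdm4, the partner of Mdm2 in restraining p53, read 659 with oxozeaenol, 451 with SB431542, 527 with TGF-beta2 and 501 untreated. Ppm1d, a phosphatase that p53 induces and that shuts the response down, read 458 with oxozeaenol, 370 with SB431542, 326 with TGF-beta2 and 239 untreated. Its log2 fold with oxozeaenol over untreated was 0.88, above those of Gadd45a (0.85), Sesn1 (0.70) and Fas (0.67) and below Trp53inp1 (1.29). The median of the 9 with oxozeaenol over TGF-beta2 was 0.05, the same as for all genes, and with median centring both were −0.02. With oxozeaenol it was 0.18 over untreated (0.03 for all genes) and 0.20 over SB431542 (0.02 for all genes).

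A wider list of 40 further p53 targets had 37 measured genes. With oxozeaenol over TGF-beta2, the rule took 3 of them as higher and 3 as lower and left 31, beside 1.82% higher and 2.17% lower of all genes. Their median log2 fold was 0.28, against 0.05 for all genes, and 27 of 37 were above 0, as were 57.4% of all genes. The higher ones were Ddit4l, a growth inhibitor acting on mTOR (1.39), Perp, a membrane protein of desmosomes and apoptosis (1.38), and Rprm, reprimo, linked to arrest in G2 (1.25). All 3 kept probe sets of Ddit4l were higher, by 1.35 to 2.06. Lower were the polo-like kinase genes Plk3 (−2.02) and Plk2 (−1.51) and the antiproliferative gene Btg2 (−1.19), which growth factors also induce as immediate early genes. Plk3 read 76.5 with oxozeaenol, 182 with SB431542, 377 with TGF-beta2 and 243 untreated. The second probe set of Btg2 was lower by less, at −0.30. The list therefore did not differ in 1 direction.

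Over untreated, oxozeaenol left Perp (1.44), Sfn (1.05) and Rprm (1.04) at least 2-fold higher and Plk3 (−1.43) lower, with a median of 0.24, beside 1.49% higher, 1.51% lower and a median of 0.03 for all genes. Sfn and Rprm were inside 2-fold with quantile normalization (0.94 and 0.97) and just under it with median centring, so that Perp was the 1 higher gene under either scaling. Perp read 1530 with oxozeaenol, 605 with SB431542, 573 with TGF-beta2 and 551 untreated. Perp and Sfn, which encodes 14-3-3 sigma, are also strongly expressed in stratified epithelium, and the epithelial marker sums above were highest on the same array. What part this has in the values of Perp, or in those of Trp53inp1, Fas and Sesn1, was not tested. Sfn read 167 with oxozeaenol, 54.7 with SB431542, 168 with TGF-beta2 and 69.5 untreated, so its level with TGF-beta2 alone was as high as with oxozeaenol.

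With SB431542 over TGF-beta2, none of the 37 was at least 2-fold higher, and Trp53i11 (−1.68) and Sfn (−1.31) were lower, with a median of 0.08. Of all genes, 0.613% were higher and 1.18% lower, with a median of 0.03. Trp53i11, a gene named for its induction by p53, read 19.0 with SB431542, under the filter, and 105 to 137 on the other arrays. With SB431542 over untreated, Trp53i11 (−1.97) was the 1 gene at least 2-fold lower, none was higher, and the median was 0.03. In that comparison 0.468% of all genes were higher and 0.383% lower, with a median of −0.01. With TGF-beta2 over untreated, Sfn (1.05) was the 1 gene at least 2-fold higher, none was lower, and the median was −0.04. Here 0.673% of all genes were higher and 0.366% lower, with a median of −0.03. In oxozeaenol over SB431542, Trp53i11 (1.64), Sfn (1.31) and Perp (1.31) were higher and Plk3 (−1.06) lower, with a median of 0.23. In that comparison 1.51% of all genes were higher and 1.3% lower, with a median of 0.02.

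Relatives of the members gave 14 measured genes of 16, of which Sesn2, Mdm4, Bak1 and Bok also stand in other lists. With oxozeaenol over TGF-beta2, Cdkn1c (1.26), which encodes p57, and Zmat1 (1.01) were at least 2-fold higher, none was lower and the median was 0.30, beside 1.82% higher, 2.17% lower and a median of 0.05 for all genes. Zmat1 was inside 2-fold with quantile normalization (0.91) and with median centring (0.93). Cdkn1c read 431 with oxozeaenol, 166 with SB431542, 167 with TGF-beta2 and 253 untreated, and Cdkn1b, which encodes p27, read 1388 with oxozeaenol, 877 with SB431542, 843 with TGF-beta2 and 995 untreated. Both kinase inhibitor genes were highest with oxozeaenol, by more on the log2 scale than Cdkn1a (1.26 and 0.71, against 0.15). Among sestrins, Sesn3 had log2 folds with oxozeaenol of 0.86 over TGF-beta2 and 0.75 over untreated. Sesn2, a p53 target of the wider list and also the sestrin of the amino acid and ER stress response, had 0.12 and −0.04. Trp53inp2, the relative of Trp53inp1, stood at 0.19 and 0.18.

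The relatives of Gadd45a followed other orders. Gadd45b read 7132 with oxozeaenol, 2585 with SB431542, 6186 with TGF-beta2 and 3470 untreated. SB431542 over TGF-beta2 gave a log2 fold of −1.25 (−0.85 by its second bright probe set), and oxozeaenol over untreated gave 1.03 (0.87), or 0.98 with median centring. Its dimmest kept probe set gave 0.02 and 0.50 in the same comparisons. Gadd45g read 6029 with oxozeaenol, 3059 with SB431542, 3846 with TGF-beta2 and 3042 untreated. Gadd45a was the 1 gene of this family that was highest with SB431542.

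Fas and Bbc3 act through the death receptor and Bcl2 machinery, of which 22 of 26 listed genes were measured. Oxozeaenol over TGF-beta2 put 2 of these past 2-fold upward and 1 downward and left 19 inside it, beside 1.82% and 2.17% of all genes. The median was 0.03, against 0.05 for all genes, and was −0.01 with quantile normalization and −0.05 with median centring. The higher ones encode BH3-only proteins like PUMA. Bmf read 939 with oxozeaenol, 121 with SB431542, 229 with TGF-beta2 and 199.8 untreated, a log2 fold of 1.94 over TGF-beta2 and 2.12 over untreated. Bcl2l11, which encodes Bim, read 1412 with oxozeaenol, 547 with SB431542, 573 with TGF-beta2 and 535 untreated. Its 5 kept probe sets had log2 folds over TGF-beta2 between 0.05 and 1.27. Cflar, which encodes the FLIP inhibitor of caspase 8 downstream of Fas, was lower, with 534 with oxozeaenol, 1086 with SB431542, 1449 with TGF-beta2 and 733 untreated. All 4 of its kept probe sets were lower with oxozeaenol than with TGF-beta2, by log2 folds of −1.40 to −0.39. Bid, cut by caspase 8 to carry the signal to mitochondria, read 244 with oxozeaenol, 616 with SB431542, 376 with TGF-beta2 and 445 untreated, and was 2-fold lower with oxozeaenol than with SB431542 (−1.26). Its second kept probe set was lower by less in that comparison, at −0.62, and was highest untreated. No gene of this list was 2-fold apart with SB431542 over TGF-beta2, SB431542 over untreated or TGF-beta2 over untreated. In these comparisons 0.366% to 1.18% of all genes were, in either direction.

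**Figure D4:**
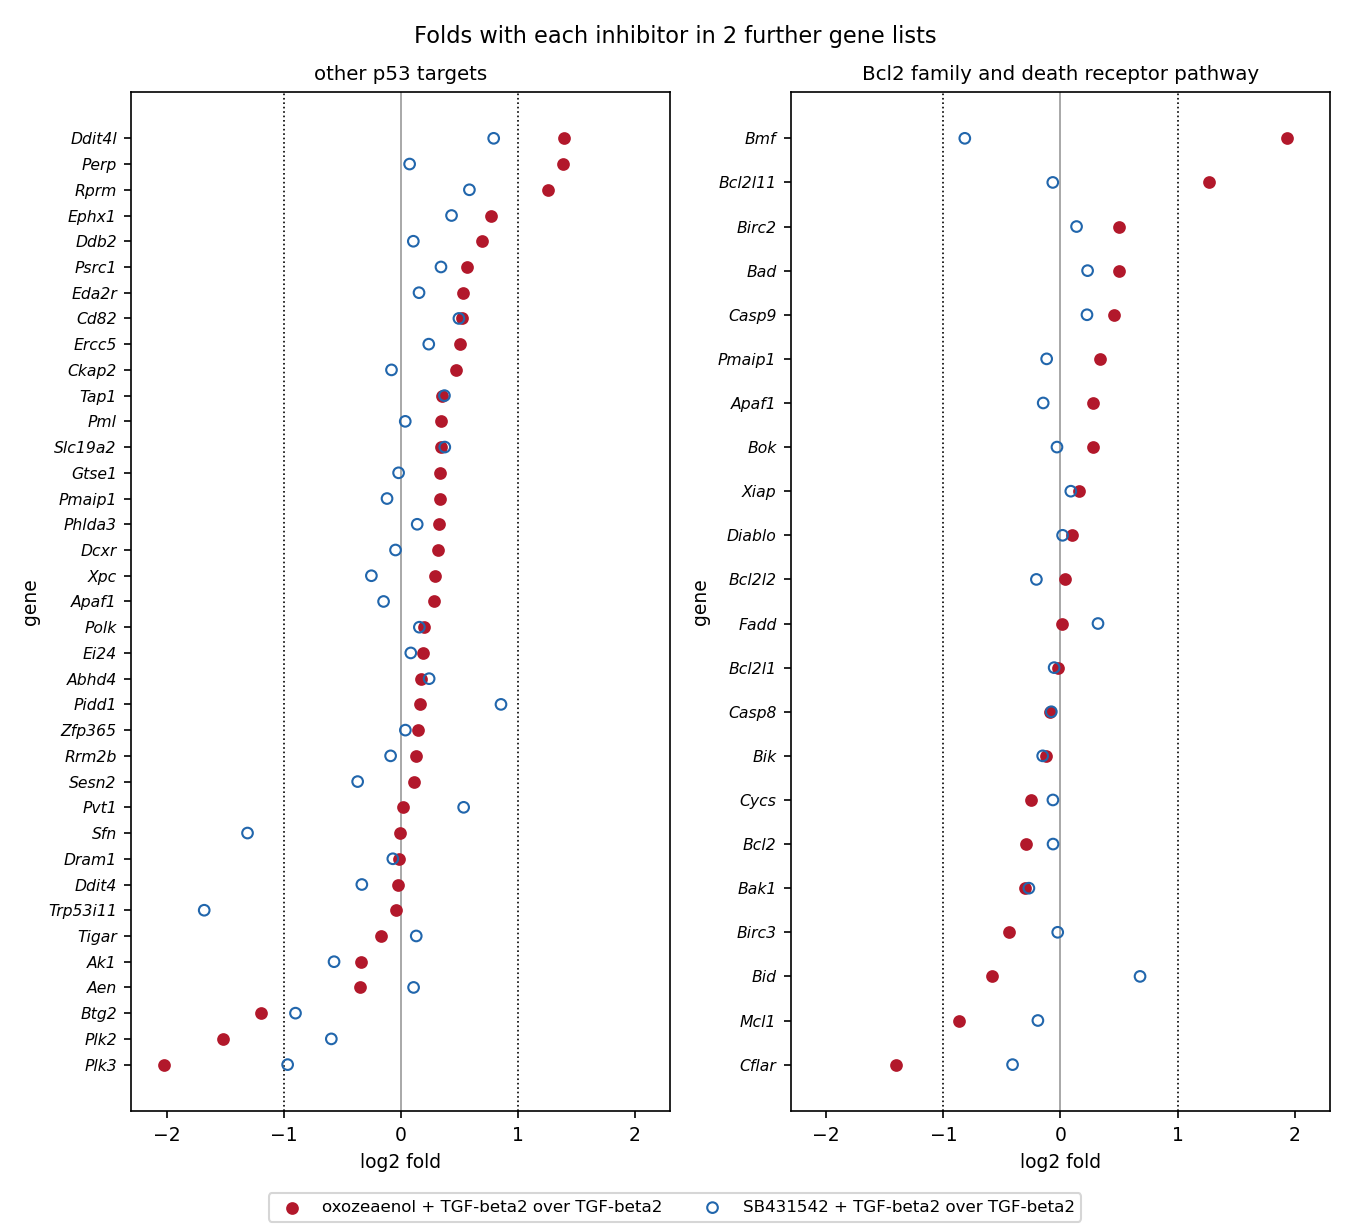
log2 folds with oxozeaenol and TGF-beta2 over TGF-beta2 (filled) and with SB431542 and TGF-beta2 over TGF-beta2 (open) for 37 other p53 targets (left) and 22 genes of the Bcl2 family and death receptor pathway (right), with dotted lines at 2-fold. Plk2, Plk3, Btg2 and Cflar lie below −1 with oxozeaenol, and Ddit4l, Perp, Rprm, Bmf and Bcl2l11 above 1.

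Cell cycle genes that p53 lowers through p21 were the last list. Of 16 genes 15 were measured, and none was 2-fold apart in any comparison, where 0.366% to 2.17% of all genes were in either direction. All 15 had log2 folds above 0 with oxozeaenol over TGF-beta2, as had 57.4% of all genes, with a median of 0.23 (0.05 for all genes). With median centring 14 of the 15 were above 0. Over untreated, 12 of the 15 were above 0 with oxozeaenol (9 with median centring), with a median of 0.17, beside 53.3% of all genes and their median of 0.03.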

How the data were processed

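Transcript levels were measured on Affymetrix 3′ arrays, 1 per culture and 1 per treatment, from 500 ng of total RNA each, per the labels' protocols. The authors deposited 1 linear intensity per array for each of 45101 probe sets, and the submitters' processing notes name GCOS, the Affymetrix array software. For its version, algorithm and settings, the sources used here give nothing. Each array had a mean of 500.0 once its lowest and highest 2% of values were set aside, so the authors' values had been scaled to a common level.

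The 64 control probe sets were left out. A probe set was named where the platform annotation gave 1 gene symbol (34945 probe sets), and 932 with several and 9160 with none were not named. Intensities were converted to log2(value + 21.7), the pseudocount being the 25th percentile of the intensities. Probe sets were kept at or above a mean signal of 66.1 over the 4 arrays (averaged on that log2 scale), the median over probe sets, and the brightest kept probe set stood for its gene. This left 11744 genes. Folds between 2 arrays were counted by a rule of size of 2-fold. Folds on this scale understate differences of dim genes. With 1 array per group no test was run and no spread could be estimated, and precision is limited by the number of arrays.

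The members, the further gene lists and the cell type markers were chosen with earlier results of these data known. From the further lists, genes at least 2-fold apart in any comparison were named, with 10 genes (Trp53, Mdm4, Ppm1d, Gadd45b, Gadd45g, Cdkn1b, Cdkn1c, Sesn2, Sesn3 and Trp53inp2) named in any case. The alternatives were 2 other pseudocounts, no filter, a stricter filter, quantile normalization, median centring, 2 other ways to represent a gene and a 1.5-fold rule. The counting step was tested on simulated data. Promoter sequences are RefSeq's, on GRCm38.p6. Python 3.11.15, numpy 2.4.6 and pandas 2.3.3 were used.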

Additional observations from a re-analysis of the deposited data

How the results depend on the processing

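With 1 array per treatment, no replicate could be left out, and no paired analysis was possible because each group holds a single array. Of 420 member folds recomputed under 8 alternatives, 418 stayed on their side of 2-fold, and 8 changed sign, all of them values inside 2-fold. The other 2 were Fas with oxozeaenol over SB431542 (0.88) and Gadd45a with SB431542 over untreated (0.99), both with the pseudocount at the median. In counts, that alternative gave 1 member at least 2-fold higher with oxozeaenol over SB431542 and 0 with SB431542 over untreated. The stricter filter, which kept 7 of the 9 members, also gave 1 with oxozeaenol over SB431542, since it left out Fas. A 1.5-fold rule gave 4 members higher with oxozeaenol over untreated, where 5.94% of all genes were, and 3 lower with TGF-beta2 over untreated, where 2.46% of all genes were. With oxozeaenol over TGF-beta2, the count of higher members was 3 under every alternative except the stricter filter, where it was 2, and the share of all genes higher lay between 0.902% and 3.23% at 2-fold. Under the 1.5-fold rule that share was 7.02%. Dim signals limit Fas, whose size depends most on the pseudocount.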
